A study of Caenorhabditis elegans with 12 samples.

Results

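Of 15386 genes tested in whole Caenorhabditis elegans, 110 changed with heat shock by different amounts in the wild type N2 and in the mutant affl-2(sy975). These genes were chosen by 1 test, the interaction, which subtracts the log2 change with heat in N2 from that in affl-2. A value below 0 means that the fold change with heat was lower in the mutant, whatever the level before heat. All 12 libraries of the study entered the fit, in 4 groups of 3. The first group was wild type N2 kept at 20 °C for 30 min, and the second was N2 kept at 33 °C for 30 min. The other groups were affl-2(sy975) animals under the same pair of treatments. All animals were taken as whole L4 animals, grown on OP50 bacteria and, per the labels, picked 250 at a time. The mutant is a single allele whose lesion the labels do not give, so the groups compare 1 strain with 1 strain. The labels do not say whether replicates came from separate cultures, so a p-value here reflects just how far these libraries scatter. The libraries held 17973117 to 22657735 estimated counts, over 17743 to 18382 genes detected. affl-2 mRNA was at 22.2, 25 and 21 CPM (counts relative to the TMM-scaled library size) in N2 at 20 °C and 25.2, 25.6 and 30.03 CPM after heat. In the mutant it was at 15.2, 15.4 and 19.6 CPM before heat and 19.2, 16.3 and 17.3 CPM after it, below all N2 libraries at the same temperature, with an interaction of −0.17 ± 0.18, adjusted p = 0.946. With the lesion not given, this level does not check the genotype.

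Animals exposed to heat activate the transcription factor HSF-1, which turns on genes of molecular chaperones, the proteins that keep other proteins folded. Many heat shock genes hold RNA polymerase II near their start until elongation factors release it, as shown best in Drosophila and mammalian cells. AF4/FMR2 proteins, the family of affl-2, are scaffolds in mammals for complexes that bring the kinase P-TEFb to such genes. The interaction addresses whether the fold change with heat differs between the strains. A strain difference of equal size before and after heat cancels out, but one present only before heat enters it.

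Most of the differences were weaker inductions in the mutant. A gene passed at a Benjamini-Hochberg adjusted p under 0.05 in edgeR's quasi-likelihood test, and 110 genes did (0.715% of those tested). Of these, 103 lay below 0 (0.669%) and 7 above 0 (0.0455%), and 1027 genes reached an unadjusted p under 0.05. In 92 genes the level rose with heat in N2, and the rise in affl-2 was smaller, did not pass or was a fall. Among these 92, heat shock in affl-2 passed as a rise for 51 genes, did not pass for 31 and passed as a fall for 10. Another 11 genes fell with heat in affl-2 and did not pass in N2. The 7 genes above 0 comprise 3 that rose with heat in affl-2 and 4 that fell with heat in N2. For comparison, heat shock in N2 was called higher for 9.52% and lower for 12% of all genes tested, and heat shock in affl-2 for 10.6% and 10.8%. The median log2 change of the 103 genes below 0 was 1.96 with heat in N2 and 0.47 with heat in affl-2, and the median interaction was −1.66, against 0.04 over all genes tested. With the groups of 0 reads set to a floor of 3 counts per library, these medians stayed at 1.96, 0.47 and −1.66.

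**Figure D1:**
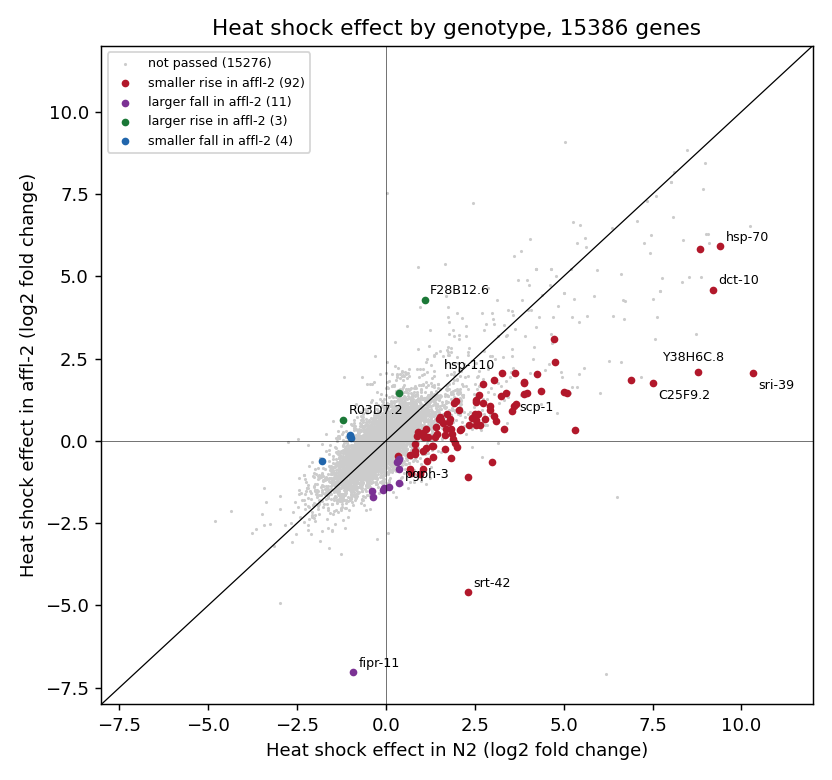
Log2 fold change with heat shock in N2 (horizontal axis) against that in affl-2 (vertical axis) for the 15386 genes tested, with the 110 genes that passed the interaction in colour by kind. The line marks equal effects; srt-42, fipr-11 and sri-39 have a group with 0 reads, so their positions depend on the prior count. Below the line lie 103 coloured genes and above it 7.

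The 92 genes were a minority of the N2 response. Heat raised 1465 genes in N2, and the interaction passed below 0 for 92 of them (6.28%) and above 0 for none of them. Among the 581 genes that rose in N2 by a log2 change of at least 1, 82 passed below 0. Of the 268 with at least 2, 51 passed, and of the 101 with at least 4, 14 passed. The share depended little on the level before heat up to 100 CPM. It was 6.44% of the N2 rises from under 1 CPM, 6.19% from 1 to 10 CPM, 7.47% from 10 to 100 CPM and 3.66% from over 100 CPM. A missed threshold does not show that the other genes rose equally. The N2 change enters both the choice of these genes and the interaction, so the counts are a description. The mean level in heated affl-2 was a median of 32.5% of that in heated N2 over the 92 genes.

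Among the genes chosen by an interaction below 0, the strains differed mainly after heat. For 76 of the 103 genes below 0, affl-2 against N2 did not pass at 20 °C and passed as lower after heat shock. Another 10 were higher in affl-2 at 20 °C and lower after heat, and 9 were lower at both. The remaining 8 were higher at 20 °C, 7 of them with no difference that passed after heat and 1, the pseudogene srd-14, still higher. Over all genes tested, affl-2 was called higher for 6.69% and lower for 7.29% at 20 °C, and higher for 10.1% and lower for 9.57% after heat. Every heated affl-2 library lay below every heated N2 library for 98 of the 103 genes (17.6% of all genes tested). Before heat the libraries of the strains overlapped for 58 of the 103, all affl-2 libraries lay above for 27 (15.6% of all genes tested) and all below for 18 (15.6%). The levels before and after heat enter the interaction that chose the 103, so these counts are a description.

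**Figure D2:**
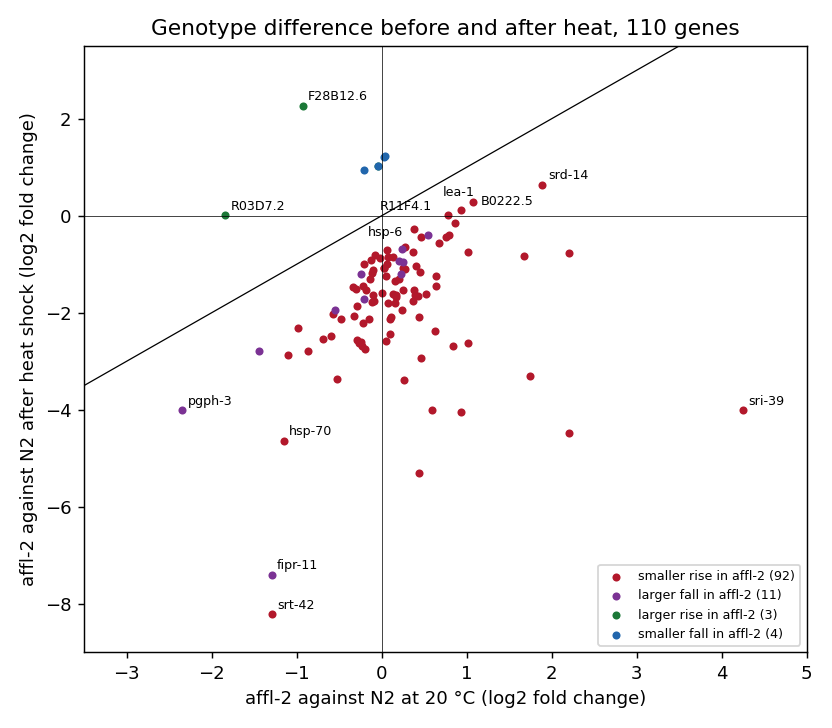
Log2 difference of affl-2 from N2 at 20 °C (horizontal axis) and after heat shock (vertical axis) for the 110 genes, coloured by kind; points on the line have an interaction of 0, and the positions of srt-42, fipr-11 and sri-39 depend on the prior count. Most of the 92 genes of the first kind sit near 0 on the horizontal axis and below 0 on the vertical axis, with R11F4.1, lea-1 and B0222.5 among the exceptions to the right of 0 and near the horizontal line.

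Of 11 chaperone genes of the HSP70 and HSP110 family, 5 rose less in the mutant, against 0.669% below 0 over all genes tested. This list, like the others, was chosen with earlier results of these data known. hsp-70, a cytosolic HSP70 made mainly under stress, stood at 3.18, 2.02 and 7.04 CPM in the unheated N2 libraries and 2553, 2610.3 and 3069 CPM in the heated ones. The mutant went from 0.873, 2.65 and 1.91 to 111, 102 and 117 CPM. All heated mutant libraries lay far below all heated N2 libraries, at a mean of 4.01% of the N2 level, while the unheated groups overlapped. The heat effect was 9.40 ± 0.45 in N2 and 5.92 ± 0.42 in affl-2 (log2 ± SE), and the interaction −3.49 ± 0.56, adjusted p = 0.0131. The call was lost on leaving out, one at a time, unheated affl-2 replicate 2 (−3.11, adjusted p = 0.0591), heated affl-2 replicate 2 (−3.48, adjusted p = 0.0774) and heated affl-2 replicate 3 (−3.53, adjusted p = 0.0502). hsp-70 stood at its highest unheated level in N2 replicate 3, the library in which the hsp-16 genes also stood highest before heat.

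hsp-110, a nucleotide exchange factor for HSP70, went from 515, 493 and 524 to 4788, 4667 and 5234 CPM in N2 and from 429.7, 368 and 445 to 1709, 1770.1 and 1708 CPM in affl-2. The groups did not overlap after heat, and the interaction was −1.20 ± 0.14, adjusted p = 0.000364. hsp-4, the BiP of the endoplasmic reticulum, rose from 472, 410.2 and 576 to 2474, 2428 and 3347 CPM in N2 and from 432, 450.2 and 482 to 771, 826 and 825 CPM in affl-2 (interaction −1.67 ± 0.20, adjusted p = 0.00044). The unheated groups of hsp-4 overlapped, and the heated mutant reached 29.4% of the heated N2 mean. hsp-1, the constitutive cytosolic HSC70, was the most abundant of the 110 genes in counts. It rose from 2519, 2475 and 2606 to 5417, 5297 and 5965 CPM in N2 and from 2184, 1989 and 2399 to 2820.1, 2864 and 2728 CPM in affl-2. Its interaction was −0.78 ± 0.14, adjusted p = 0.0151, and did not pass without heated affl-2 replicate 1 (−0.78, adjusted p = 0.0561).

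hsp-6, the mitochondrial HSP70, had a different pattern. Its levels were 646, 683 and 629.7 CPM in unheated N2, 1226, 1200.5 and 1264 CPM after heat, 897, 779 and 881 CPM in unheated affl-2 and 1007, 1041 and 1022 CPM in heated affl-2. The mutant was higher before heat (0.39 ± 0.09, adjusted p = 0.011) and did not pass after it (−0.27 ± 0.09, adjusted p = 0.0507). The interaction, −0.65 ± 0.13, adjusted p = 0.0257, did not pass without unheated N2 replicate 3 (adjusted p = 0.0922), any 1 of the heated N2 replicates (adjusted p = 0.0878, 0.0655 and 0.0609), and likewise heated affl-2 replicate 1 (adjusted p = 0.0949). None of the 11 HSP70 and HSP110 genes passed above 0, and the list median was −0.65. Among those that did not pass, the neighbouring HSP70 genes F44E5.4 and F44E5.5, whose reads may be shared, gave −1.26 ± 1.18 and −0.16 ± 0.60. Their means in heated N2 were 7560 and 8125 CPM, against 1779 and 1897 CPM in heated affl-2. Before heat the means were 28.3 and 41.7 CPM in N2 and 15.9 and 10.8 CPM in affl-2. With these SEs a difference in their induction was not resolved. The endoplasmic hsp-3 gave −0.01 ± 0.17, T24H7.2 −0.01, stc-1 −0.03 and F11F1.1 0.19.

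Among partners of HSP70 and HSP90, dnj-13, an HSP40 cochaperone, passed. It went from 193, 192 and 210.0 to 1279, 1218 and 1454 CPM in N2 and from 183, 179.9 and 191 to 598, 592 and 639.5 CPM in affl-2, with an interaction of −1.01 ± 0.13, adjusted p = 0.00113. The heated groups lay apart and the unheated mutant libraries lay just below those of N2. It was the 1 gene of 19 in the list of HSP90, HSP40 and cochaperones that passed. hsp-90 (−0.64 ± 0.15, adjusted p = 0.087) and the BAG-domain cochaperones unc-23 (−0.75 ± 0.17, adjusted p = 0.0754) and bag-1 (−0.61 ± 0.14, adjusted p = 0.0624) had values below 0 that did not pass. None of the 8 subunits of the CCT chaperonin passed, with a list median of 0.06.

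The small heat shock proteins of the hsp-16 group could not be resolved. Their 6 genes, summed because copies share reads, stood at 9.93, 3.9 and 48.6 CPM in N2 at 20 °C and 6548, 6078 and 7269 CPM after heat. In affl-2 the sum was 3.2, 7.62 and 6.55 CPM before heat and 1693, 1209 and 1711 CPM after it. The heated mutant libraries were all far below the heated N2 libraries, but this difference after heat did not pass (−2.11 ± 0.71, adjusted p = 0.0693). Unheated N2 replicate 3 stood well above the other libraries of its group. The interaction was −0.27 ± 1.04, adjusted p = 0.98, so a difference in induction was not detectable at this spread. It lay between −1.85 and 0.22 when 1 library at a time was left out. Without unheated N2 replicate 3 it was the lowest of these values, and 0 of 12 small heat shock genes tested passed in the full fit.

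Of genes that handle damaged proteins, aip-1 and sqst-1 rose less in the mutant. aip-1 encodes a zinc finger protein induced by arsenite and linked to the proteasome. It reached 374, 373 and 475 CPM in heated N2, from 29.2, 28 and 40.6 CPM, against 108, 104 and 122 CPM in heated affl-2, from 28.5, 24.6 and 26.5 CPM. The interaction was −1.57 ± 0.20, adjusted p = 0.000923. sqst-1, the autophagy receptor known as p62 in mammals, went from 52.3, 56.3 and 71.5 to 464, 418 and 496 CPM in N2 and from 77.2, 101 and 102 to 191, 171 and 219 CPM in affl-2. All unheated mutant libraries of sqst-1 lay above all unheated N2 libraries and all heated ones below the heated N2 libraries, which gave an interaction of −1.88 ± 0.20, adjusted p = 0.000155. Each was the only member of its list to pass, of 16 ubiquitin and quality control genes and 22 autophagy genes. No proteasome subunit passed (0 of 32).

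The smallest adjusted p belonged to scp-1, the homologue of SCAP, which escorts the transcription factor SREBP. Its levels were 51, 50.9 and 47.9 CPM in N2 at 20 °C and 818, 757 and 772 CPM in heated N2, 53, 51.4 and 55.3 CPM in unheated affl-2 and 144, 149 and 143 CPM in heated affl-2. Replicates were close in every group. Before heat the strains differed by 0.09 ± 0.08, which did not pass (adjusted p = 0.501), and after heat they lay far apart. The rise was 3.97 ± 0.09 in N2 and 1.45 ± 0.08 in affl-2, an interaction of −2.52 ± 0.12, adjusted p = 4.69e-08. Next to it lies ttll-12, a member of the tubulin tyrosine ligase family, which went from 93.7, 83.9 and 83.2 to 1201, 1227 and 1422 CPM in N2 and from 75.7, 66.3 and 79.6 to 180.3, 199 and 216 CPM in affl-2. Its interaction was −2.46 ± 0.16, adjusted p = 1.75e-06, close to that of its neighbour. scp-1 spans positions 9334014 to 9338896 of chromosome II in WBcel235, ttll-12 begins 100 bases further on the same strand, and reads that run from one into the other were not examined.

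Other highly expressed genes had responses of the same kind. tent-5, a noncanonical poly(A) polymerase, rose from 146, 131 and 148 to 1402, 1309 and 1753 CPM in N2 and from 135, 159 and 179.9 to 425, 402 and 458 CPM in affl-2 (interaction −1.95 ± 0.18, adjusted p = 4.54e-05). Y43F8B.2 rose from 46.1, 44.9 and 42.2 to 1108, 996 and 1466 CPM in N2 and from 32.3, 40.5 and 39.4 to 199, 183 and 206 CPM in affl-2 (interaction −2.36 ± 0.19, adjusted p = 2.04e-05). In both genes the heated groups were well apart. Y94H6A.10 rose from 121, 116 and 197 to 1009.5, 1013 and 1266 CPM in N2 and from 95.5, 158 and 118 to 245, 196 and 270.4 CPM in affl-2. Its unheated N2 replicate 3 was high, and the interaction, −1.98 ± 0.32, adjusted p = 0.00868, did not pass without heated affl-2 replicate 2 (−1.91, adjusted p = 0.0514).

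**Figure D3:**
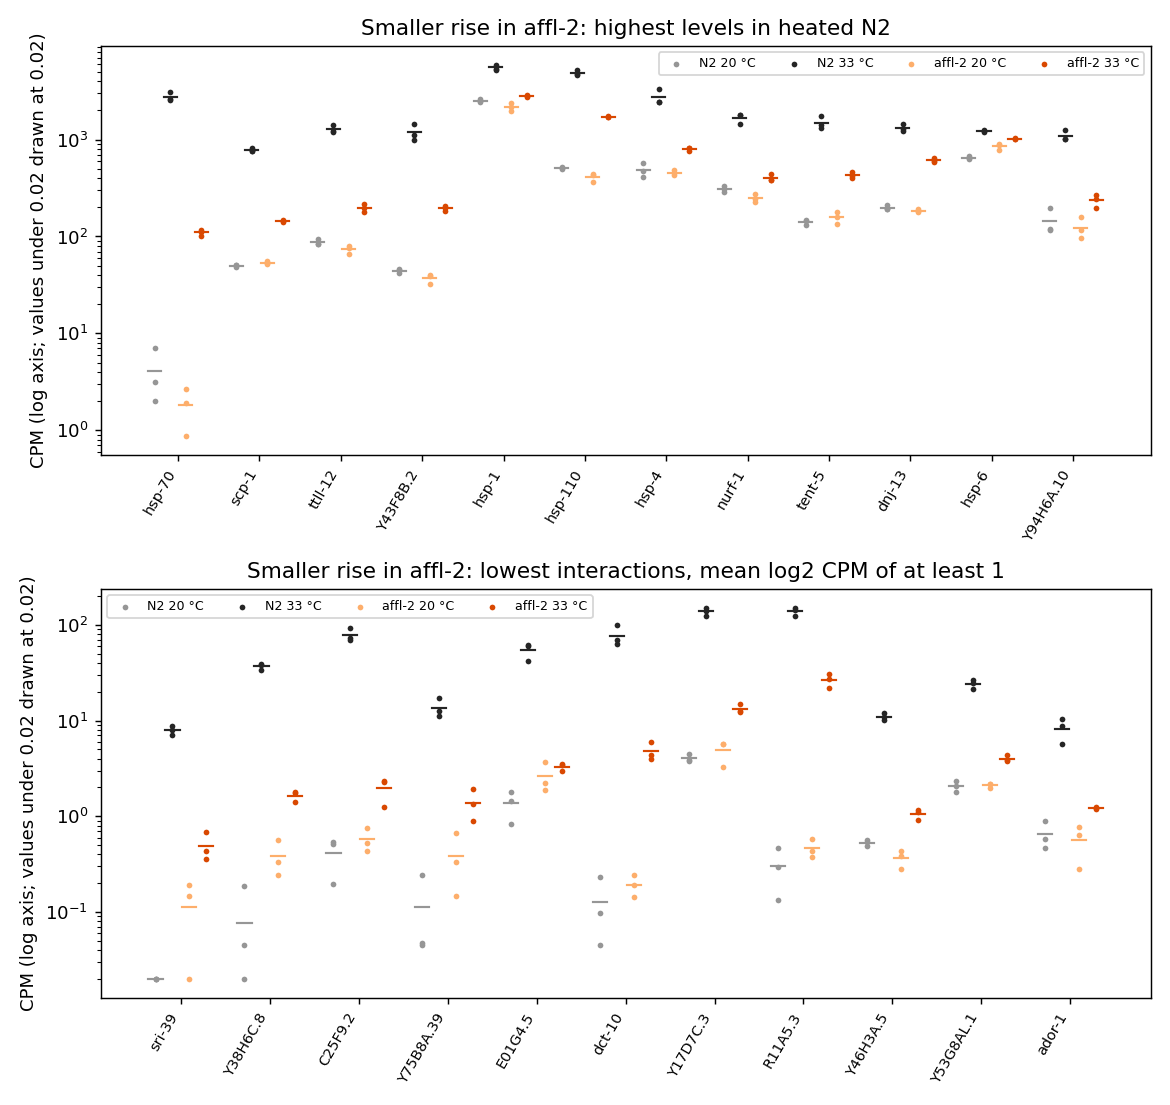
CPM on a log axis of genes that rose in N2 and rose less in affl-2, by group, with each point 1 library and each bar the mean of 3; the upper panel holds the 12 genes of highest level in heated N2 and the lower panel others among the lowest interactions at a mean log2 CPM of at least 1. In every gene drawn, the heated affl-2 libraries lie below the heated N2 libraries.

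Many of the lowest interactions came from genes nearly silent before heat. C25F9.2 went from 0.537, 0.517 and 0.197 CPM in unheated N2 to 72.6, 92.7 and 68.8 CPM, and in affl-2 from 0.437, 0.758 and 0.526 to 2.36, 1.25 and 2.28 CPM. The heated mutant held 2.52% of the heated N2 level, with an interaction of −5.75 ± 0.51, adjusted p = 2.97e-05. Y38H6C.8 had 5 reads in unheated N2 in all, and its levels there were 0.0447, 0.188 and 0 CPM. After heat it reached 38.8, 38.3 and 33.9 CPM in N2 and 1.73, 1.79 and 1.41 CPM in affl-2, where unheated libraries had 0.243, 0.568 and 0.335 CPM. The unheated mutant was thus higher and the heated mutant lower (interaction −6.69 ± 0.63, adjusted p = 4.54e-05). E01G4.5 rose from 1.79, 1.46 and 0.837 to 60.3, 62.2 and 41.4 CPM in N2, while in affl-2 the change from 3.73, 1.89 and 2.25 to 3.47, 2.94 and 3.49 CPM did not pass (adjusted p = 0.419). Its interaction was −4.98 ± 0.39, adjusted p = 2.04e-05.

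Several of these genes rose in the mutant as well, to lower levels. R11A5.3 went from 0.134, 0.47 and 0.295 to 142, 123 and 150.1 CPM in N2 and from 0.437, 0.379 and 0.574 to 30.4, 21.9 and 27.2 CPM in affl-2 (interaction −3.01 ± 0.44, adjusted p = 0.0032). The pseudogene Y17D7C.3 went from 3.85, 4.51 and 3.79 to 152, 138 and 124 CPM in N2 and from 5.72, 5.64 and 3.25 to 12.7, 12.4 and 14.7 CPM in affl-2 (interaction −3.64 ± 0.25, adjusted p = 3.13e-06). In neither gene did the heated groups overlap. The pseudogene dct-10, with 8 reads in unheated N2, reached 68.9, 100.3 and 62.9 CPM in N2 after heat and 4.4, 6.03 and 3.93 CPM in heated affl-2. Its interaction was −4.60 ± 0.79, adjusted p = 0.0104. With unheated affl-2 replicate 1 removed it was −4.46 (adjusted p = 0.0633), and with replicate 2 removed −4.62 (adjusted p = 0.0657). Y75B8A.39, with 7 such reads, reached 11.2, 17.2 and 12.6 and 0.889, 1.35 and 1.94 CPM, and lost its call without unheated affl-2 replicate 2 (−4.40, adjusted p = 0.0665).

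Y53G8AL.1 (−2.64 ± 0.22, adjusted p = 2.39e-05) and Y46H3A.5 (−2.84 ± 0.35, adjusted p = 0.000629) rose in N2 to means of 24.1 and 11 CPM and in affl-2 to 4.0 and 1.06 CPM. ador-1 (−2.55 ± 0.50, adjusted p = 0.0263) rose to 8.26 and 1.22 CPM, and passed in only 4 of the 12 fits that leave out 1 library (adjusted p up to 0.0966). The chemoreceptor family gene sri-39 had 0 reads in all unheated N2 libraries and 7.12, 8.78 and 7.96 CPM in heated N2, at least 56.4-fold higher against a floor of 3 counts per library. In affl-2 it stood at 0.146, 0.189 and 0 CPM before heat and 0.356, 0.434 and 0.679 CPM after it. It passed (adjusted p = 0.0131), but not once unheated affl-2 replicate 1 or 2 was removed (adjusted p = 0.0568 and 0.117), and its fitted value is no bound because a group is at 0. Of the 110 genes, 9 had at most 9 reads in some group.

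In some genes the values of single transcripts differed more than those of the others. The 5 genes given here were chosen after their values were seen, by a share of the gene's counts that shifted by 40 percentage points or more with heat in N2, with an SD under 15 points. In scp-1, the transcript D2013.8b.2 held 5.12% of the counts in N2 at 20 °C and 78.2% in heated N2, and 7.57% and 55.2% in affl-2. Its level went from 2.54 ± 1.81 to 612 ± 38 CPM in N2 and from 4.04 ± 0.993 to 80.02 ± 3.22 CPM in affl-2 (mean ± SD, 3 libraries). The transcript that was main before heat, D2013.8a, went from 47.4 ± 2.93 to 119.9 ± 4.32 CPM and from 49.2 ± 1.7 to 63.9 ± 4.38 CPM. The annotated start of the heat transcript lies 468 bases downstream of the other.

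In tent-5 and nurf-1, too, a transcript with a later start was high in heated N2. F55A12.9b, whose start lies 4476 bases downstream of the main transcript at 20 °C, held 1.1% of tent-5 counts in unheated N2, 69% in heated N2, 1.01% in unheated affl-2 and 37.5% in heated affl-2. It rose to 1027 ± 161 CPM in N2 and 161 ± 24.1 CPM in affl-2, while F55A12.9c reached 139 ± 25.6 and 149 ± 8.0 CPM. nurf-1, the homologue of BPTF and a subunit of the chromatin remodeller NURF, went from 310.5, 335 and 289 to 1793, 1438 and 1804 CPM in N2 and from 274, 227 and 246 to 379.6, 442 and 379.8 CPM in affl-2 (interaction −1.74 ± 0.17, adjusted p = 5.09e-05). Its transcript F26H11.2f.1, with a start 14718 bases downstream, went from 5.35 ± 2.73 to 875 ± 211 CPM in N2 and from 1.7 ± 1.78 to 44.1 ± 2.02 CPM in affl-2. F26H11.2d, another of its transcripts, reached 154 ± 3.01 CPM in N2 after heat and 138 ± 6.81 CPM in heated affl-2, so the strains lay closer there.

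In F26F12.3 the transcripts ranked the strains in opposite order after heat. F26F12.3b.2 was at 212 ± 17.5 CPM in N2 after heat and 92.5 ± 6.56 CPM in heated affl-2, and F26F12.3a.1 at 68.3 ± 6.82 and 115 ± 2.7 CPM. In Y46H3A.5 the transcript Y46H3A.5a, which starts 1513 bases upstream of the other, had 8.4 ± 1.65 CPM in N2 after heat and 0.0612 ± 0.0554 CPM in heated affl-2. Shares are estimates from short single reads over shared exons, and transcripts were not tested.

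**Figure D4:**
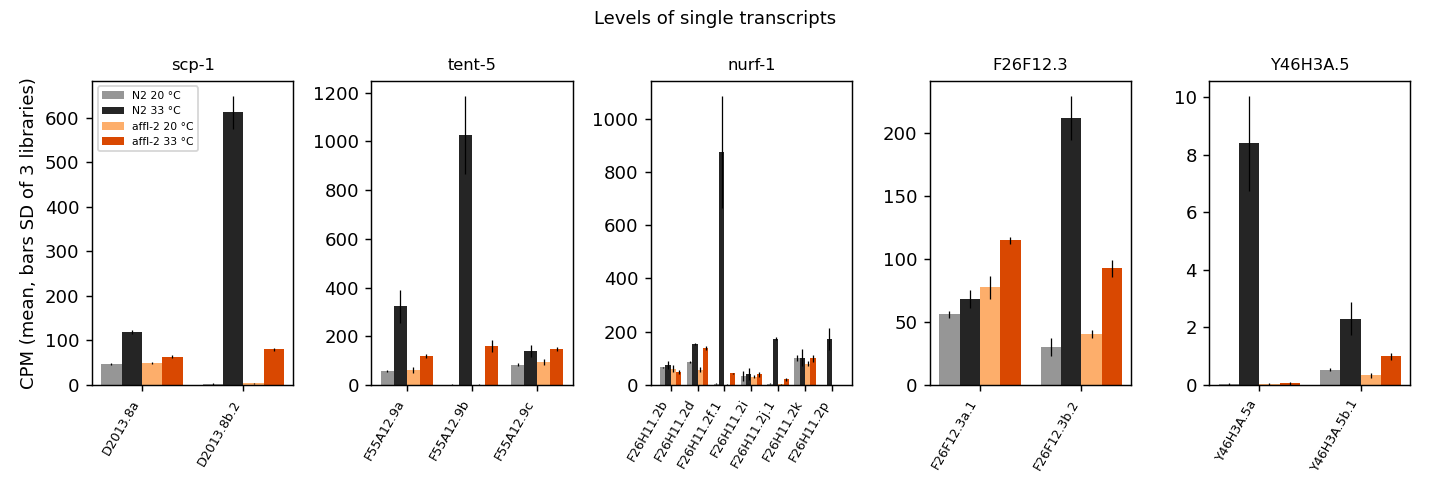
CPM of single transcripts of 5 genes by group, as means of 3 libraries with SD bars; each panel has its own scale starting at 0. In each panel at least 1 transcript is high in heated N2 and lower in heated affl-2, such as D2013.8b.2 of scp-1 at a mean of 612 and 80.0 CPM.

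Enzymes that conjugate foreign compounds and lipids were the largest families outside the chaperones. Of 34 glutathione transferase (gst) genes tested, 4 passed below 0, and of 62 UDP-glucuronosyltransferase (ugt) genes, 5 did, with none above in either family, against 0.669% below 0 over all genes tested. The families were picked with their values in view. Most members of both families did not pass, and the family medians were −0.18 and −0.08. gst-36 went from 43, 39.7 and 48 to 255, 272 and 301 CPM in N2 and from 41.7, 50.3 and 48.5 to 65.1, 52.4 and 77.3 CPM in affl-2 (interaction −2.19 ± 0.19, adjusted p = 2.97e-05). gst-1 (−1.12 ± 0.20, adjusted p = 0.0141), gst-20 (−1.23 ± 0.21, adjusted p = 0.00984) and gst-7 (−0.97 ± 0.18, adjusted p = 0.0141) were the others. gst-1 did not pass without heated affl-2 replicate 1 (−1.09, adjusted p = 0.0561), and gst-20 was higher in affl-2 at 20 °C. In ugt-13 the level went from 6.04, 9.07 and 6.64 to 106, 107 and 111 CPM in N2 and from 8.73, 11.7 and 10.7 to 33.9, 31.7 and 39.9 CPM in affl-2 (interaction −2.13 ± 0.21, adjusted p = 7.46e-05). Nearby ugt-8 (−1.28 ± 0.25, adjusted p = 0.0263) passed in only 4 of 12 fits that leave out 1 library. Between them lies ugt-14, whose interaction of −2.25 did not pass (adjusted p = 0.0966). ugt-66 (−1.34 ± 0.24, adjusted p = 0.0131) rose in N2 and did not pass in affl-2, while ugt-63 and ugt-12 fell with heat in affl-2.

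Other expressed genes rose in N2 and did not pass in affl-2. F57A8.1 went from 36.1, 38.7 and 37 to 154, 170.5 and 125 CPM in N2 and was at 39, 44.1 and 48.4 CPM before and 39.9, 33.4 and 43.3 CPM after heat in affl-2 (interaction −2.18 ± 0.19, adjusted p = 2.39e-05). Its exons overlap other genes on both strands, with which its reads could be shared. cdd-1, a cytidine deaminase, went from 12.6, 11.5 and 11.9 to 49.5, 48.3 and 41.2 CPM in N2 and from 15.4, 18.4 and 13.2 to 16, 12.6 and 16.4 CPM in affl-2 (interaction −2.02 ± 0.20, adjusted p = 7.46e-05). tbc-20, with the domain of proteins that switch off Rab GTPases, went from 44.6, 46.4 and 39.96 to 168, 174 and 134 CPM and from 45.8, 37.9 and 37 to 46.3, 49.8 and 42.9 CPM (interaction −1.66 ± 0.17, adjusted p = 0.000121). In these 3 genes the heated mutant libraries lay within or near the range of the unheated ones, far below heated N2. lact-4, of the beta-lactamase domain family, rose from 19.3, 15.6 and 18.3 to 97.9, 98.2 and 114 CPM in N2 and less, from 19.5, 28.3 and 23.6 to 35.2, 31.4 and 32.4 CPM, in affl-2 (interaction −2.07 ± 0.19, adjusted p = 4.20e-05).

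Genes of chromatin and transcription were few. nurf-1 was the 1 of 16 chromatin genes in the list that passed. Outside the list, chosen after their values were seen, were the histone genes his-41 and his-38, the jumonji gene jmjd-3.3 and egrh-1, a homologue of the early growth response factors. his-41 went from 33.6, 38.3 and 39.9 to 85.7, 81.3 and 115 CPM in N2 and from 36.8, 38.3 and 48.9 to 35.9, 30.9 and 43.6 CPM in affl-2 (interaction −1.51 ± 0.23, adjusted p = 0.00377). his-38 (−2.36 ± 0.35, adjusted p = 0.00363) had the same pattern at means of 4.79 CPM in N2 after heat and 0.768 CPM in heated affl-2. Of 28 histone genes tested 2 passed, against 0.669% below 0 over all genes tested, and 9 of the 28 rose with heat in N2. The libraries were of poly(A) RNA, so histone mRNA without a poly(A) tail was selected against. Exons of his-41 overlap C50F4.6 by up to 173 bases on the same strand, so reads could be shared. C50F4.6 itself rose in N2 (log2 change 0.95, adjusted p = 0.00054), and its interaction of −0.43 did not pass. egrh-1 rose to 59.4 and 32.8 CPM (interaction −0.93 ± 0.15, adjusted p = 0.0059). jmjd-3.3 (−1.50 ± 0.31, adjusted p = 0.0343) passed in only 4 of 12 fits that leave out 1 library.

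For 10 genes the direction differed between the strains, with a rise in N2 and a fall in affl-2, each passed. slc-17.5, of the SLC17 transporter family, rose from 20.4, 17.3 and 19.1 to 47.9, 47.4 and 47.8 CPM in N2 and fell from 17.6, 22.1 and 24.1 to 14.6, 15 and 15.6 CPM in affl-2. The heat effects were 1.33 ± 0.12 and −0.50 ± 0.12 (interaction −1.83 ± 0.17, adjusted p = 4.54e-05). The unheated groups overlapped and the heated groups did not. dhc-4, a dynein heavy chain gene, rose from 26.3, 20.8 and 23.4 to 43.9, 52.8 and 49.6 CPM and fell from 15.5, 17.9 and 13.3 to 7.82, 7.82 and 10.5 CPM (interaction −1.90 ± 0.21, adjusted p = 0.000243). It was lower in affl-2 before heat as well, as was T10B5.8 (−1.76 ± 0.21, adjusted p = 0.000428). daf-7, the TGF-beta ligand that holds back dauer arrest, went from 7.83, 9.96 and 6.99 to 13.2, 11.6 and 15.3 CPM in N2 and from 4.37, 5.87 and 7.51 to 2.62, 2.7 and 3.78 CPM in affl-2 (interaction −1.66 ± 0.31, adjusted p = 0.017). It did not pass without unheated N2 replicate 3 (−1.55, adjusted p = 0.0509), heated N2 replicate 3 (−1.56, adjusted p = 0.0502), nor without heated affl-2 replicate 1 (−1.56, adjusted p = 0.0671).

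The others of these 10 were srdh-1 (−1.19 ± 0.15, adjusted p = 0.000923), ugt-63 (−1.97 ± 0.31, adjusted p = 0.00466), F26A3.4 (−1.11 ± 0.19, adjusted p = 0.013), R13H7.2 (−1.52 ± 0.29, adjusted p = 0.0191), ZK470.2 (−0.79 ± 0.16, adjusted p = 0.032) and srt-42. srdh-1 was higher in affl-2 at 20 °C and lower after heat. R13H7.2 passed in 7 and ZK470.2 in 5 of the 12 fits that leave out 1 library. The chemoreceptor family gene srt-42 had 1.96, 2.21 and 1.31 CPM in N2 after heat and 0 reads in all heated affl-2 libraries, with 9 reads in all in unheated affl-2, so the fall itself rests on a handful of reads. After heat N2 was at least 12.9-fold higher against a floor of 3 counts per library. Its call (adjusted p = 0.0161) was lost without unheated affl-2 replicate 2 (adjusted p = 0.0772).

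The 11 genes that fell in affl-2 without a call in N2 had N2 changes between −0.92 and 0.38 on the log2 scale. F25E5.8 was at 15.9, 19.1 and 13 CPM in N2 at 20 °C and 13.9, 15.6 and 16.3 CPM in heated N2, and fell from 21.4, 19.7 and 15.1 to 7.11, 6.03 and 6.88 CPM in affl-2 (interaction −1.42 ± 0.23, adjusted p = 0.00719). pgph-3, of the phosphoglycolate phosphatase family, was at 139, 98.4 and 89.5 and 134, 124 and 165 CPM in N2 and fell from 18.7, 24.5 and 21 to 8.84, 6.85 and 10.6 CPM in affl-2 (interaction −1.66 ± 0.27, adjusted p = 0.00719). It was low in the mutant before heat, where F31F7.1 (−1.34 ± 0.23, adjusted p = 0.0117), F43H9.4 (−1.39 ± 0.25, adjusted p = 0.0157) and fipr-11 were lower too. dgat-2, of the acyltransferases that make storage fat, fell from 13.4, 22.4 and 21.1 to 7.82, 4.54 and 9.02 CPM in affl-2 and was at 19.5, 23 and 23.2 and 24.3, 23.3 and 22.6 CPM in N2 (interaction −1.51 ± 0.31, adjusted p = 0.0402). haf-1, a mitochondrial peptide exporter, fell from 5.29, 6.91 and 5.74 to 3.11, 3.18 and 3.73 CPM in affl-2 and was at 5.19, 5.07 and 4.77 and 6.56, 5.56 and 7.22 CPM in N2 (interaction −1.20 ± 0.23, adjusted p = 0.0234).

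Some of these calls were lost in fits that leave out 1 library. dgat-2 passed in 3, haf-1 in 5, T19H5.4 (−0.93 ± 0.19, adjusted p = 0.0336) in 3 and fipr-11 in 3 of the 12 fits that leave out 1 library. nhx-3, of the sodium-proton exchangers (−0.95 ± 0.17, adjusted p = 0.0131), did not pass without heated affl-2 replicate 1 (−0.89, adjusted p = 0.0535). F43H9.4 did not pass without heated N2 replicate 2 (−1.34, adjusted p = 0.0542), nor without heated affl-2 replicate 3 (−1.29, adjusted p = 0.0535). ugt-12 (−0.95 ± 0.16, adjusted p = 0.0117) and the pseudogene math-27 (−1.15 ± 0.20, adjusted p = 0.0117) passed without each library in turn, but math-27 lost its call with offsets for transcript length. fipr-11 had 0 reads in all heated affl-2 libraries, and heated N2 was at least 7.38-fold higher against a floor of 3 counts per library.

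The 7 genes above 0 had interactions between 1.07 and 3.2. R03D7.2 fell with heat in N2, from 42.9, 55.1 and 47.7 to 24.2, 22.5 and 16.4 CPM, and rose in affl-2, from 15.9, 11 and 13.9 to 24.4, 21.3 and 17.9 CPM. The strains differed before heat and overlapped after it, and the interaction, 1.85 ± 0.25, adjusted p = 0.00114, passed without each library in turn. C37H5.14, near hsp-6, was at 7.34, 6.86 and 6.84 and 9.36, 8.66 and 9.38 CPM in N2 and rose from 6.64, 6.49 and 7.32 to 20.5, 15.1 and 20.2 CPM in affl-2 (interaction 1.07 ± 0.20, adjusted p = 0.0161). F28B12.6 had 28 reads in heated N2 and 167 in heated affl-2, with levels of 0.448, 0.598 and 0.569 and 2.98, 2.32 and 2.52 CPM (interaction 3.20 ± 0.65, adjusted p = 0.0341). C37H5.14 passed in 7 and F28B12.6 in 1 of the 12 fits that leave out 1 library, with adjusted p up to 0.0685 and 0.347.

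The other 4 fell with heat in N2 and stood higher in heated affl-2. dop-2, a dopamine receptor of the D2 class, fell from 7.25, 8.93 and 8.02 to 3.48, 4.36 and 4.32 CPM in N2 and was at 7.18, 8.0 and 8.22 and 7.78, 8.59 and 8.48 CPM in affl-2 (interaction 1.08 ± 0.21, adjusted p = 0.0217). Y105C5A.1 fell from 8.23, 8.69 and 7.97 to 4.54, 4.12 and 3.81 CPM in N2 and was at 7.57, 8.52 and 9.42 and 9.33, 10.3 and 9.55 CPM in affl-2 (interaction 1.19 ± 0.19, adjusted p = 0.00663). In both the heated affl-2 libraries lay above the heated N2 libraries and in the range of the unheated ones or just above it. Y67D8C.9 (1.15 ± 0.24, adjusted p = 0.0402) did not pass in affl-2, and the pseudogene Y54G2A.24 (1.17 ± 0.25, adjusted p = 0.0457) fell in both strains, with log2 changes of −1.79 in N2 and −0.62 in affl-2. Of these 4, Y105C5A.1 passed in all 12 fits that leave out 1 library, dop-2 in 6, Y67D8C.9 in 2 and Y54G2A.24 in 1.

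**Figure D5:**
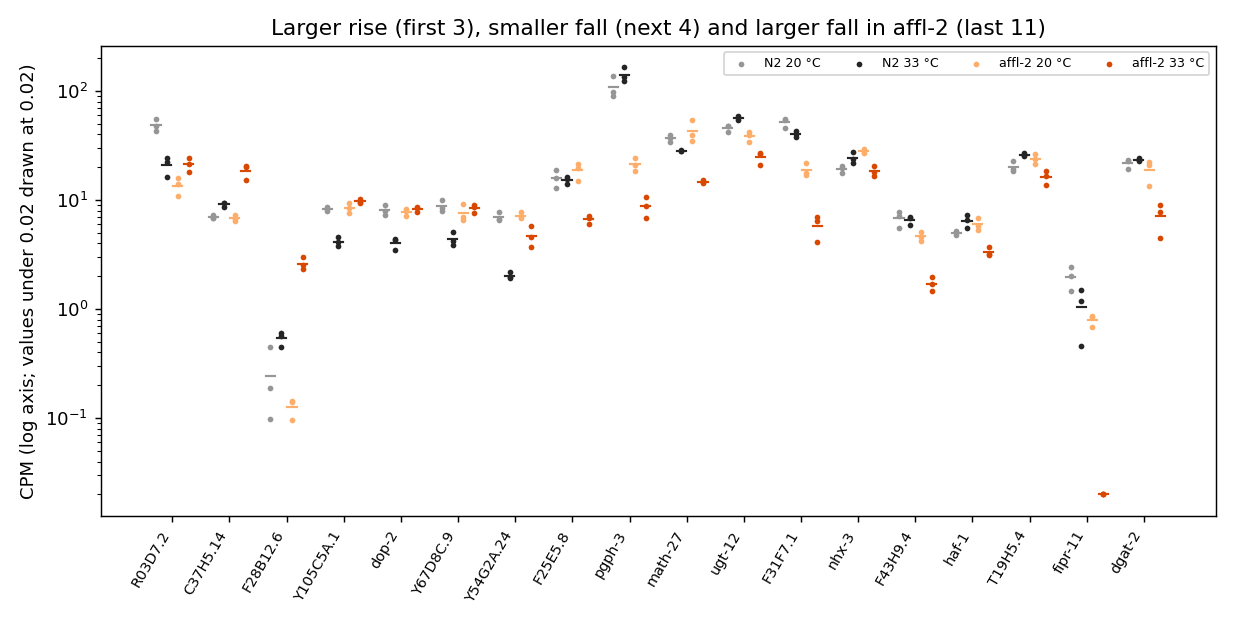
CPM on a log axis of the 18 genes that rose more in affl-2 (3), fell less in affl-2 (4) or fell in affl-2 without a call in N2 (11), by group, with each point 1 library and each bar the mean of 3. R03D7.2 is the gene whose unheated groups lie apart and whose heated groups overlap, and fipr-11 has no reads in heated affl-2.

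In 7 genes the interaction came with a higher level in the unheated mutant and no call after heat. lea-1, related to the late embryogenesis abundant proteins of desiccation, rose from 236, 278 and 248 to 543, 543 and 493 CPM in N2 and was at 485, 463 and 509 and 607, 545 and 552 CPM in affl-2 (interaction −0.82 ± 0.13, adjusted p = 0.00719). Its mutant libraries before heat were already near the heated N2 level. R11F4.1 rose from 34.6, 40.6 and 30.3 to 126, 130.1 and 141 CPM in N2 and from 63.1, 61.3 and 57.2 to 139, 128 and 135 CPM in affl-2 (interaction −0.77 ± 0.15, adjusted p = 0.0267), with overlapping heated groups. argn-1, an arginase (−1.01 ± 0.20, adjusted p = 0.0265), hsp-6, F16B12.4 (−1.18 ± 0.24, adjusted p = 0.0294), B0222.5 (−0.79 ± 0.16, adjusted p = 0.0402) and W07B8.4 (−2.97 ± 0.62, adjusted p = 0.0402) were the others. lea-1 passed in all 12 fits that leave out 1 library, argn-1 in 6, R11F4.1 in 5, F16B12.4 and B0222.5 in 4 and W07B8.4 in 3.

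No gene of the tissue marker lists was among the 110, although the summed levels of several lists differed between the strains. None passed of 23 muscle, 26 neuron, 22 intestine, 28 hypodermis and molting, 24 germline, 32 sperm, 13 oocyte and 6 vitellogenin genes tested. Outside these lists, the 110 do hold genes known from single tissues, such as spe-36 of sperm and the neuronal daf-7 and dop-2. The summed level of the hypodermis and molting list was 5304 to 7351 CPM in unheated N2, 6711 to 9877 in heated N2, 2092 to 4458 in unheated affl-2 and 3835 to 4930 in heated affl-2. The vitellogenins summed to 15947 to 18337 CPM, 14609.9 to 18759 CPM, 5967 to 7768 CPM and 3799 to 6518 CPM in the same order. The intestine list summed to 8537 to 10254 CPM, 8054 to 9859 CPM, 5999 to 7511 CPM and 5126 to 7164 CPM. These 3 lists were lower in the mutant before heat as well as after it, and all genes of the tissue lists but 1 sperm gene passed the filter on low counts. In whole animals fewer cells of a type and less RNA per cell cannot be told apart, and the part of these levels in the interaction was not tested. Whether the strains had reached the same point of L4 was not tested either. List medians of the interaction were 0.45 for hypodermis and molting, −0.52 for vitellogenins and 0.03 for intestine.

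Other lists had few members that passed or none, against 0.669% below 0 over all genes tested. Of the endoplasmic reticulum stress list 1 of 19 passed (hsp-4), of the mitochondrial stress list 2 of 14 (hsp-6 and haf-1), and of the oxidative and xenobiotic list 2 of 19 (ugt-13 and gst-7). None of 16 stress transcription factors, 22 elongation factors, 8 SR splicing factors, 21 antimicrobial genes, 12 genes of the intracellular pathogen response or 7 metal response genes did. hsf-1 itself was at 66.7, 65.5 and 52.7 CPM in N2 after heat and 53, 64 and 53.1 CPM in heated affl-2 (interaction 0.02 ± 0.17, adjusted p = 0.997), and its sign differed between processing alternatives. affl-1, the paralogue of affl-2, had 1 and 2 reads in the unheated groups, so its interaction could not be measured.

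Some of the 110 genes lay near each other. Within 10 kb of another of the 110 were 22 of them (20%), against 2.72% of the other tested genes and 9.2% of the other genes that rose in N2 by a log2 change over 1. They formed 11 pairs, 9 on the same strand and 2 convergent, among them scp-1 with ttll-12, dct-10 with Y38H6C.8, ugt-8 with ugt-13, and nud-2, a dynein regulator, with R11A5.3. dct-10 and Y38H6C.8, at 20506503 to 20509510 and 20513961 to 20515732 on chromosome V, had interactions of −4.60 and −6.69. nud-2 and R11A5.3, at 7857756 to 7859417 and 7862529 to 7863569 on chromosome I, had −0.85 and −3.01. In 1 pair, hsp-6 with C37H5.14, the directions were opposite. Chromosome V held 38.2% of the 110 genes and 20.3% of those tested, and chromosome I 7.27% and 16.2%. The shares were 23.6% and 17.1% for II, 8.18% and 15.3% for III, 10.9% and 17.3% for IV and 11.8% and 13.9% for X. Pseudogenes numbered 7 of the 110, against 3.95% of the genes tested, and 52 genes (47.3%, against 44.4% of those tested) are known by a sequence name alone. Exons of 23 of the 110 overlap another gene, in 21 cases on the opposite strand and for 15 of the 23 by 50 bases or more. The share of all genes tested with such an overlap was not counted. The library kit keeps no strand, so reads inside such an overlap cannot be told apart from those of the partner. The longest overlaps were 246 bases for H40L08.2, 222 bases for F57A8.1 and 209 bases for algn-12. For gst-36 the longest was 93 bases and for Y43F8B.2 it was 78 bases.

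Of the 110 genes, 65 passed in every one of 12 fits that leave out 1 library and 64 in those and under all 8 other processing alternatives. By kind these 64 were 58 of the 92 that rose less, 4 of the 11 that fell in affl-2, 1 of the 3 that rose more and 1 of the 4 that fell less. No gene of the 110 changed the sign of its interaction in any of these fits.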

How the data were processed

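Poly(A) RNA of 12 libraries of whole L4 animals was sequenced as 50 nt reads from fragments of about 200 nt with a kit that keeps no strand, per the labels' protocols. The authors deposited, per transcript, estimated counts, TPM and effective lengths, per the file headers; bcl2fastq 1.8.4, kallisto and the build WBcel235 are named in the submitters' processing notes, and the kallisto version is not given in the sources used here. TPM, deposited by the authors, entered no test. Estimated counts of 35862 transcripts were summed by sequence name to 22010 genes, 21842 of them found in the Ensembl release 115 annotation of WBcel235, and rounded. edgeR 4.0.16 (R 4.3.3) fitted the 4 groups with TMM scaling, filterByExpr at a minimum count of 10 and a robust quasi-likelihood test with 8 residual degrees of freedom. Of the genes, 15386 were tested and 6624 set aside, and p-values were adjusted by Benjamini-Hochberg over all genes tested at a threshold of 0.05. SE is the size of the log2 change divided by the square root of F. CPM are TMM scaled, and log2 ± SE and adjusted p are from this fit.

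The fitting code was tested on simulated data. The genes and gene lists were chosen with earlier results of these data known. Genes were named by rule: all that passed above 0, and, of those below 0 with a mean log2 CPM of at least 1, the 12 lowest interactions, the 12 smallest adjusted p and the 12 highest in heated N2, with every list member that passed, affl-2, affl-1, hsf-1, hsp-90, unc-23, bag-1 and the hsp-16 sum. Any further gene, and the gst, ugt and his families, were picked with their values in view. Alternatives were DESeq2 1.42.0, its size factors in edgeR, library size alone, offsets for transcript length, no filter, a minimum count of 50, replicate blocks and leaving out each library. Counting error bounds at 0 reads use 3 counts per library and cover counting error only. No promoter sequences were used here.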

Additional observations from a re-analysis of the deposited data

Results flagged for a closer look

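The heat response differed between the strains, by the interaction test itself, for 110 genes. By kind these were 92 with a smaller rise in affl-2, 11 that fell in affl-2 without a call in N2, 3 with a larger rise and 4 with a smaller fall.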

How the results depend on the processing

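Without 1 library at a time, between 80 and 128 genes passed, with 77 to 124 below 0 and 3 to 10 above 0. Smaller rises then numbered 71 to 110, larger falls 6 to 14, larger rises 0 to 7 and smaller falls 1 to 5. Of the 110 genes, between 78 (without heated affl-2 replicate 1) and 99 (without unheated affl-2 replicate 1) passed in these fits, and 85 without unheated N2 replicate 3. DESeq2 called 216 genes, 194 below 0 and 22 above, and all 110 were among them. They included 166 smaller rises, 28 larger falls, 14 larger rises and 7 smaller falls, and the rest above 0 met the definition of no kind. Same-numbered libraries deviated together with a correlation over 0.1 in 14 of 18 pairs (lowest −0.590), so not every pair passed, and the labels do not say what a number marks. With the replicate block of the labels 101 of the 110 passed and larger rises numbered 5. With numbers 1 and 2 of unheated affl-2 exchanged in the replicate block, 17 of 18 pairs were over 0.1 and 221 genes passed, 183 below 0 and 38 above. These comprised 160 smaller rises, 23 larger falls, 18 larger rises and 20 smaller falls, and the cause was not tested. The exchange was picked with these correlations in view, so neither the pairs over 0.1 nor the 221 genes are a check of it. Under DESeq2 size factors in edgeR, library size alone, length offsets, no filter and a minimum count of 50, between 103 and 109 of the 110 passed. The median interaction of all genes was 0.04, and 0.08 with library size alone. The hsf-1 interaction, near 0 throughout, was −0.024 with DESeq2, −0.024 with its size factors and −0.013 with no filter. Leave-one-out values were −0.13 to 0.077 for hsf-1, −1.85 to 0.22 for the hsp-16 sum and −1.23 to 3.2 for affl-1, which has almost no reads before heat. With 3 libraries a group, genes of few reads before heat have wide SEs.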
